A study of Homo sapiens with 12 samples.

Results

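Knockdown of IGF2BP3 was compared with control siRNA in ES-2, a cultured ovarian carcinoma cell line, by sequencing of ribosome-depleted total RNA. The comparison used 6 of the 12 libraries of the series, 3 from cells given an siRNA pool against IGF2BP3 (siI3) and 3 from cells given a control siRNA pool (siC). All members of each group were taken by their sample titles, and all genes of the table were examined except the spike-in RNAs. The other 6 libraries, 3 with siRNA pools against IGF2BP1 (siI1) and 3 against IGF2BP2 (siI2), were set beside them. All 12 were of the same line, with no untransfected library among them. Each knockdown rests on 1 siRNA pool, so effects of the targeted mRNA and other effects of that pool cannot be told apart. The sources used here give neither the dose nor the time of transfection. The labels do not tie replicates to separate cultures, and the p-values therefore reflect only how far these libraries scatter, which may be technical.

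IGF2BP3 belongs to a family of oncofetal RNA-binding proteins with RRM and KH domains, which are abundant in the embryo, low in most adult tissues and expressed again in many carcinomas. These proteins bind mRNAs in the cytoplasm and influence their stability, transport and translation, and they have been described as readers of N6-methyladenosine. An siRNA lowers its target through Argonaute-directed cleavage of the mRNA, and the transcripts that then change can be bound mRNAs or lie further downstream, which the level of total RNA does not separate.

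Mesenchymal and epithelial markers were both present in the cells. Summed over 24 mesenchymal markers the level was 3016 to 3515 FPM in siC, and over 25 epithelial markers 663 to 1061 FPM. At 0 in siC were 0 to 1 of the 24 and 6 to 8 of the 25. In siC the intermediate filament gene VIM was at 998, 850 and 895 FPM (fragment counts as scaled by the authors to a common library size) and the keratin KRT7 at 495, 787 and 500 FPM, while the epithelial adhesion gene EPCAM was at 0, 0 and 0.135 FPM. VIM was called lower in siI3, at 246, 254 and 516 FPM (log2 change -1.52, limma adjusted p = 0.0264). It kept that call in 2 of the 6 fits that leave out 1 library and did not pass between siI3 and siI1 or siI2. The ovarian carcinoma lineage gene PAX8 was at 0.116, 0.647 and 0.135 FPM in siC, so this defining marker of the labelled tissue was near 0. Summed over 20 leukocyte markers, the level was 2.32 to 5.01 FPM in siC and 3.37, 3.05 and 14.2 FPM in siI3 replicates 1, 2 and 3, with 7 to 13 of the 20 at 0 in siC and 12, 13 and 5 in siI3. Summed over 13 endothelial markers, the level was 214 to 301 FPM in siC and 433, 406 and 264 FPM in siI3 replicates 1, 2 and 3.

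The libraries differed in ways that bear on every result. Total reads were 6512429 to 11304060 in siC and 4857951 to 8277786 in siI3, including the spike-ins. GC slopes were taken on the deviation of each library from the gene mean over the 12 libraries, and are relative to that mean. Relative to it, GC-poor transcripts were over-represented in siC replicates 1 and 3. Their slopes were -0.46 and -0.43 log2 units per 10 percentage points of transcript GC content, against 0.02 in siC replicate 2 and 0.16, 0.17 and -0.02 in siI3 replicates 1, 2 and 3. In siI3 replicate 3 reads were spread over more of the annotation. With all libraries thinned to the same number of reads, 29167 features had a read there, against 20674 to 23380 in the other 11 libraries. Of 439 genes in families that are silent outside sense organs and germ line, 119 had a read there at that depth, against 17 to 55 in the others. Small nuclear RNA took 12.4% of its reads and 1.32% and 1.52% in siI3 replicates 1 and 2, against 9.91% to 22.4% in siC. Results are therefore given also after subtraction of a smooth surface over GC content and transcript length from each library (the GC and length correction, for 13575 genes) and without siI3 replicate 3.

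**Figure D1:**
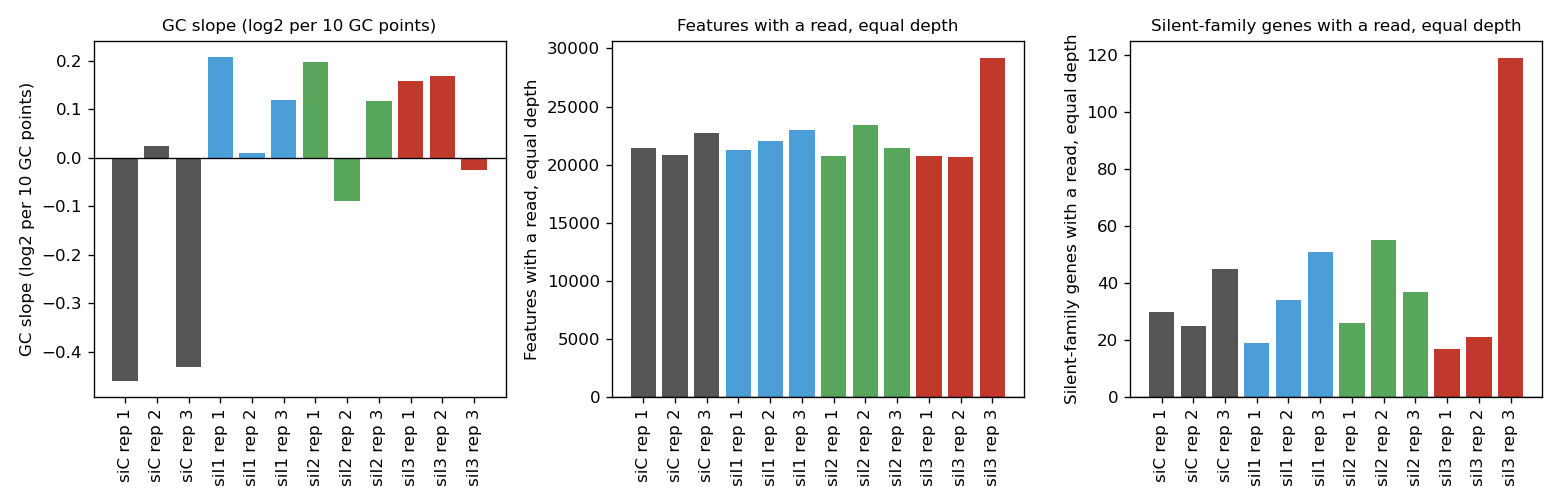
Library measures in each of the 12 libraries (bars, coloured by siRNA group): the slope over GC content of the deviation of log2 expression from the gene mean of the 12 libraries, the number of features with a read at equal depth, and the number of 439 genes in silent families with a read at equal depth. siC replicates 1 and 3 stand at -0.46 and -0.43 in the first panel, and siI3 replicate 3 at 29167 features and 119 genes in the others.

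The siRNA target itself was lower in every siI3 library. IGF2BP3 was at 21.7, 19.5 and 29.4 FPM in siC and at 5.89, 2.54 and 5.14 FPM in siI3, and the groups did not overlap. The difference on the log2(FPM + 1) scale was -2.19 (SE 0.28, limma adjusted p = 0.000658, n = 3 in each group), and it passed whichever of the 6 libraries was left out. After the GC and length correction it was -1.69 (limma adjusted p = 0.00154). IGF2BP3 was also lower in siI3 than in siI1 and siI2, with differences of -1.60 and -1.56 (limma adjusted p = 0.00173 and 0.00679), differences that use no siC level. Its paralog IGF2BP1 was at 41.9, 49.1 and 40.7 FPM in siC and 39, 35.3 and 42.5 FPM in siI3 (limma adjusted p = 0.539). IGF2BP2 was at 74.8, 81.4 and 83.9 FPM in siC and 94, 117 and 97.5 FPM in siI3 (limma adjusted p = 0.286). Neither paralog passed the test.

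Across 13782 genes tested by limma on log2(FPM + 1), 1460 passed an adjusted p of 0.05 (10.6%), of which 317 were higher (2.3%) and 1143 lower (8.29%) in siI3. After the GC and length correction 895 genes passed (6.59%), 348 higher (2.56%) and 547 lower (4.03%), and 595 passed the same way in both fits (4.32%), 160 higher (1.16%) and 435 lower (3.16%). The share of calls that were higher thus moved from 21.7% to 38.9%. Leaving out siC replicate 1 left 89 calls and leaving out siC replicate 3 left 111, while leaving out siC replicate 2 gave 2824. Without siI3 replicate 3 there were 2742 calls, 1101 higher and 1641 lower, and without siI3 replicates 1 and 2 there were 215 and 156. The genes that passed in all 6 of these fits numbered 75 (0.544%), 14 higher (0.102%) and 61 lower (0.443%). Groups did not overlap for 4034 genes (29.3%). The authors' deposited table lists 279 features with an FDR below 0.05 for this comparison, 94 higher and 185 lower; of these, 254 were among the genes tested here, and all 254 were called in the same direction by limma.

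**Figure D2:**
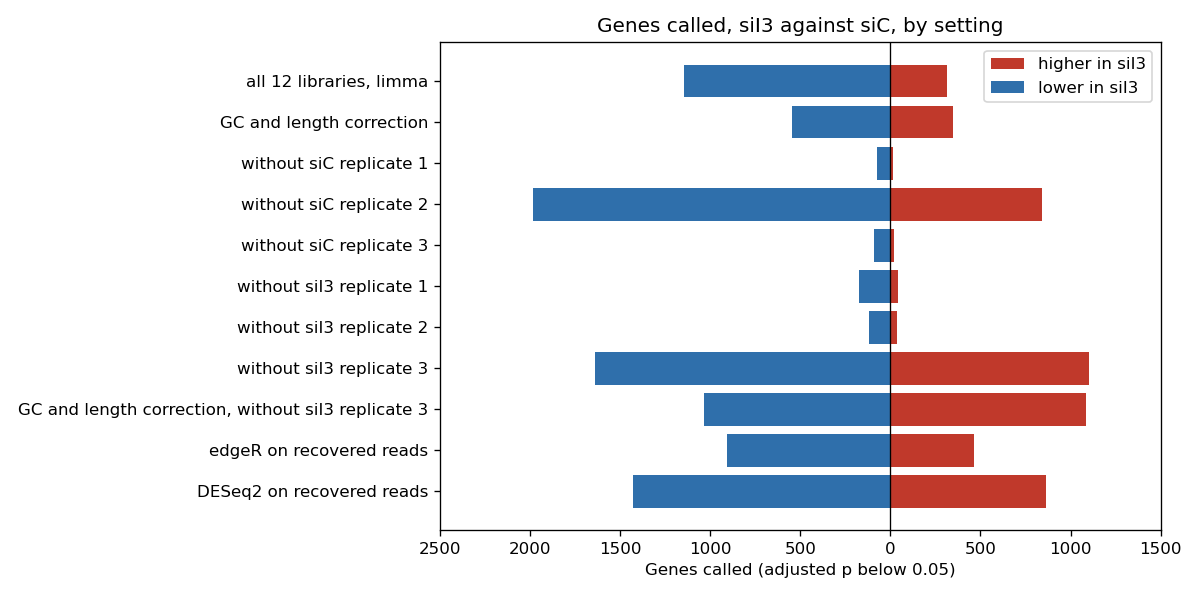
Number of genes called higher (red, right) or lower (blue, left) in siI3 than in siC at an adjusted p below 0.05, by setting of the analysis. The count runs from 89 without siC replicate 1 to 2824 without siC replicate 2 across the limma fits that leave out 1 library.

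The largest increases included ARC, VGF, CCDC80 and ESM1. ARC, the cytoskeleton-associated product of an immediate-early gene of neurons, was at 0.348, 0.539 and 0.271 FPM in siC and 6.74, 3.05 and 6.56 FPM in siI3. VGF, a precursor of secreted neuropeptides, was at 5.22, 7.44 and 3.11 FPM in siC and 29.6, 33.3 and 14.2 FPM in siI3. Neither gene's groups overlapped, and the log2 changes were 2.16 for ARC and 2.07 for VGF (SE 0.33 and 0.34, limma adjusted p = 0.002 and 0.00417). CCDC80, a secreted matrix-associated protein, rose from 15.4, 17.2 and 14.1 FPM to 73.5, 76.9 and 47.5 FPM (log2 change 1.99, SE 0.21, limma adjusted p = 0.00013). It was also called higher than siC in siI1 and siI2 (means 37.2 and 39.4 FPM, limma adjusted p = 0.0027 and 0.00711). Between siI3 and siI2 CCDC80 did not pass (limma adjusted p = 0.103). ESM1, the secreted proteoglycan endocan, rose from 13.3, 6.15 and 10.8 FPM to 43.6, 39.8 and 33.1 FPM (log2 change 1.89, SE 0.28). The vesicle SNARE VAMP4 was at 1.29 to 2.09 FPM in siC and 7.75 to 13.1 FPM in siI3. The small GTPase RAC3 was at 27.2 to 46 FPM in siC and 71.8 to 137 FPM in siI3. The tubulin-binding stathmin STMN3 was at 70.8 to 89.2 FPM in siC and 143 to 325 FPM in siI3. ARC, VGF, CCDC80, ESM1, VAMP4, RAC3, STMN3 and the arrestin ARRB2 kept their call in all 6 fits that leave out 1 library and after the GC and length correction. TSPOAP1, SORCS2 and PPP1R13L kept theirs in 5 of the 6 fits. ID3, a dominant-negative helix-loop-helix protein, was called with all libraries (log2 change 1.72, limma adjusted p = 0.0146) and in 2 of the 6 fits. Against siC, STMN3, SORCS2 and ID3 were also called higher in siI1, and RAC3 and ARRB2 in siI2. The long noncoding RNA AC006480.2 was at 2.81, 0.889 and 11.7 FPM in siI3, highest in the library with the wider spread of reads, and did not pass without it (limma adjusted p = 0.073).

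**Figure D3:**
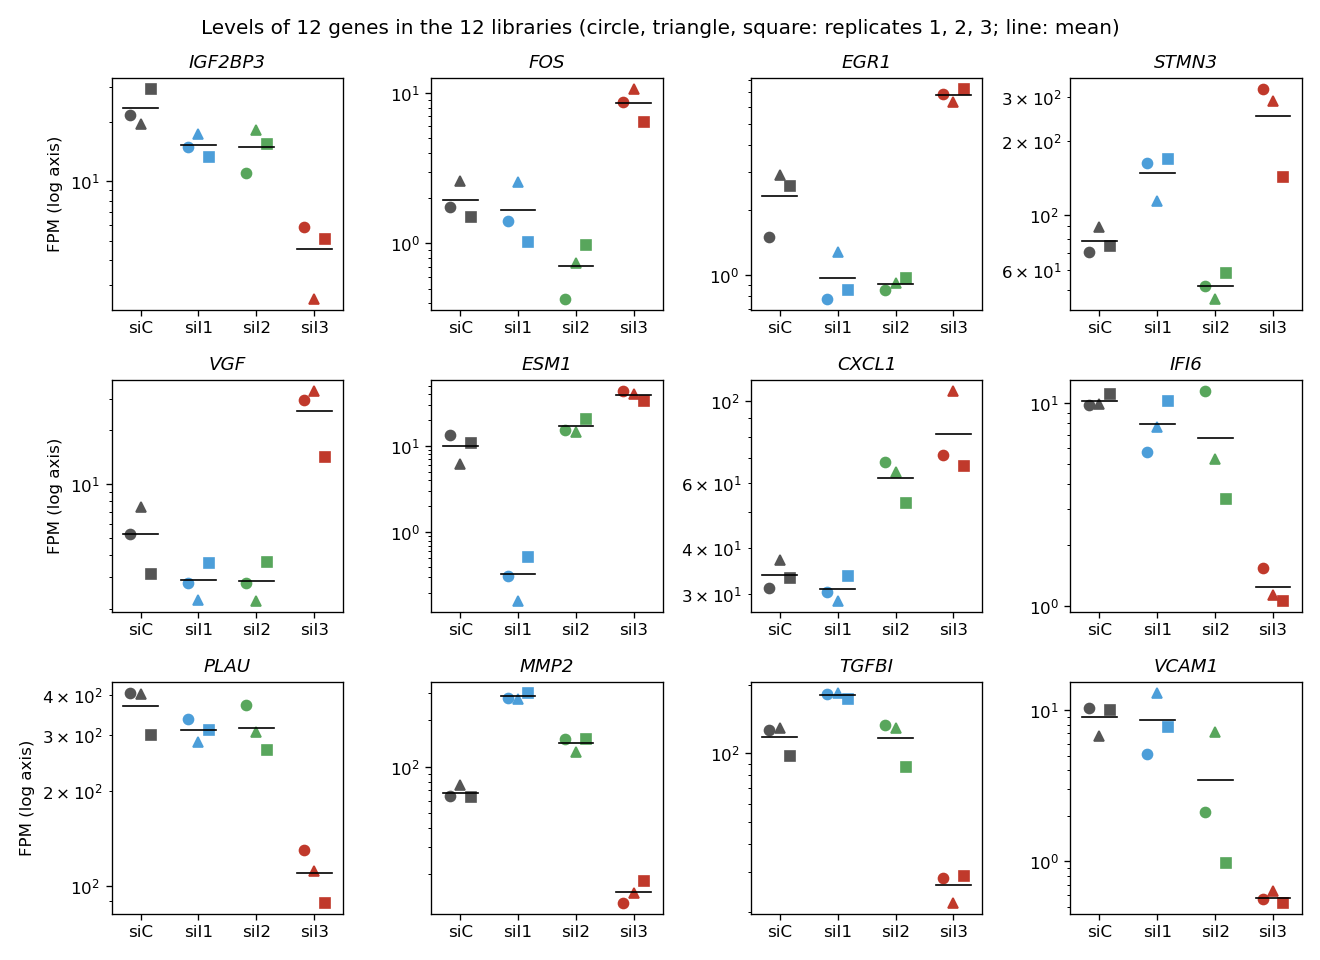
FPM on a log axis for 12 genes in every library of the 4 siRNA groups (points, with the shape giving the replicate number and a line for the group mean). In each panel the 3 siI3 points lie apart from the 3 siC points, above them for FOS, EGR1, STMN3, VGF, ESM1 and CXCL1 and below them for IGF2BP3, IFI6, PLAU, MMP2, TGFBI and VCAM1.

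Of 27 tested EGF-family ligands and ERK-responsive genes, a list that includes immediate-early genes, 5 rose and 1 fell, against 2.3% and 8.29% of all genes. The counts were also 5 and 1 after the GC and length correction, against 2.56% and 4.03% of all genes. FOS, a subunit of the AP-1 transcription factor, was at 1.74, 2.59 and 1.49 FPM in siC and 8.7, 10.7 and 6.38 FPM in siI3 (log2 change 1.70, SE 0.31, limma adjusted p = 0.00772). FOSB, its paralog, was at 1.16 to 1.51 FPM in siC and 4.43 to 7.75 FPM in siI3. EGR1, a zinc-finger transcription factor, was at 1.51, 2.91 and 2.57 FPM in siC and 6.88, 6.35 and 7.26 FPM in siI3 (log2 change 1.26, SE 0.28, limma adjusted p = 0.0171). DUSP1, a phosphatase of MAP kinases, was at 15 to 28.8 FPM in siC and 34.5 to 59.1 FPM in siI3. In none of these genes did the groups overlap, and FOS, FOSB, EGR1 and DUSP1 also passed after the GC and length correction. The fifth member that rose was the ligand EREG (2.37 to 5.22 FPM in siC, 6.38 to 16.7 FPM in siI3), named here after its values were seen. The member that fell was the phosphatase DUSP4, from 30.9 to 49.4 FPM in siC to 12.2 to 22.5 FPM in siI3. Other feedback genes did not pass, among them DUSP6 at 85.5 to 104 FPM in siC and 66.5 to 81.5 FPM in siI3, and the AP-1 gene JUN at 164 to 216 FPM in siC and 188 to 331 FPM in siI3. Leaving out 1 library took the call from FOS in 3 of 6 fits, from FOSB in 2, and from EGR1 and DUSP1 in 4. The median log2 change of the list was 0.20, against -0.05 over all genes.

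The promoters of EGR1 and VGF are shown because they hold named elements of immediate-early and cAMP-responsive genes. Sequences are from RefSeq on GRCh38.p14, from 250 bases before to 50 after the start of transcription, written along the gene. Capitals mark the matches, CArG boxes (the serum response element) in EGR1 (chr5:138465229-138465528, plus strand) and the cAMP response element TGACGTCA in VGF (chr7:101165520-101165819, minus strand). Searched on both strands, a CArG box was in 1.29% of 35116 RefSeq promoters and TGACGTCA in 1.85%. Among the 5 members of the ERK list that rose, EGR1 alone had a CArG box and DUSP1 alone had TGACGTCA. The EGR1 matches start 105 and 83 bases before the start of transcription and the VGF match 79 bases before it.
EGR1: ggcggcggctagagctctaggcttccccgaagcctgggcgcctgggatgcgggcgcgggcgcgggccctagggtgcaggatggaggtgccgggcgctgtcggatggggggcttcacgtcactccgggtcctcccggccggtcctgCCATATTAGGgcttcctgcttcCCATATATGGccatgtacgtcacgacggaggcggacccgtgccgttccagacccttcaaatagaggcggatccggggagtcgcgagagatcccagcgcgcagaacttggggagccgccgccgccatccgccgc
VGF: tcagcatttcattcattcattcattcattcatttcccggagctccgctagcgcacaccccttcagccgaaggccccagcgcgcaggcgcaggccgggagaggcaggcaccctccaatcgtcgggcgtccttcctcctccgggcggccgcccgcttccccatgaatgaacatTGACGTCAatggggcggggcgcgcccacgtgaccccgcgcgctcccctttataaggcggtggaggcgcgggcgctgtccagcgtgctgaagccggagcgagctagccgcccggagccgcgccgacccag

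The neutrophil-attracting chemokines CXCL1, CXCL2 and CXCL3 rose. Of 21 tested NF-kB cytokines, chemokines and feedback genes 4 rose, against 2.3% of all genes, and the median log2 change was 0.13. In limma, edgeR and DESeq2 without the correction 0 members were lower at an adjusted p of 0.05, and 2 were lower at an unadjusted limma p of 0.05. With the GC and length correction CXCL1, CXCL2, CXCL3 and IL11 were higher and 1 member lower, against 2.56% and 4.03% of all genes. The lower member was TNFAIP2, named after its values were seen (limma adjusted p = 0.00408), and the median turned to -0.10. CXCL1 was at 31.3, 37.2 and 33.3 FPM in siC and 71.6, 107 and 66.6 FPM in siI3 (log2 change 1.21, SE 0.20, limma adjusted p = 0.00417), and it kept its call in all 6 fits. It was also called higher than siC in siI2 (mean 62 FPM, limma adjusted p = 0.0482). Between siI3 and siI2 CXCL1 did not pass (limma adjusted p = 0.43). CXCL2 was at 3.13, 4.21 and 4.33 FPM in siC and 7.3, 10.4 and 8.51 FPM in siI3. CXCL3 was at 3.13, 4.64 and 3.92 FPM in siC and 9.96, 10.7 and 7.8 FPM in siI3. The siI3 values of all 3 chemokines lay above every siC value. The cytokine IL11 was the fourth, at 4.29 to 6.25 FPM in siC and 10.5 to 18.9 FPM in siI3. CXCL2, CXCL3 and IL11 kept their call in 2 of the 6 fits. The feedback inhibitors NFKBIA and TNFAIP3 did not pass (limma adjusted p = 0.344 and 0.728). The related chemokine CXCL8 was at 127, 117 and 160 FPM in siC and 23.6, 23.6 and 136 FPM in siI3, so that replicate 3 lay within the siC range and the other 2 far below it (limma adjusted p = 0.0546). CXCL1, CXCL2 and CXCL3 are near-identical neighbours, and the sources used here do not say how the counting split reads shared between them, so the separate values are uncertain.

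Their promoters are shown because the 3 genes changed together and hold the same element at nearly the same place. Capitals mark the match to the kB-type element GGGNNTTTCC in CXCL1 (chr4:73869143-73869442, plus strand), CXCL2 (chr4:74099146-74099445, minus strand) and CXCL3 (chr4:74038640-74038939, minus strand), with the same source and window as above. It starts 79, 78 and 79 bases before the start of transcription. On either strand this element was in 1.91% of the 35116 promoters. It was also in the promoters of 7 of the 11 members that did not pass and had a sequence, CXCL5 and NFKBIA among them.
CXCL1: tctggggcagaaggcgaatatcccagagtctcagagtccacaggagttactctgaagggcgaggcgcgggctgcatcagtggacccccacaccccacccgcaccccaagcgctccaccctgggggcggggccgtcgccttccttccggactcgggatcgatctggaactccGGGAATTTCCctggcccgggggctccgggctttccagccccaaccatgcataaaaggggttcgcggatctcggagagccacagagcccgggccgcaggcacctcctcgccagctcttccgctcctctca
CXCL2: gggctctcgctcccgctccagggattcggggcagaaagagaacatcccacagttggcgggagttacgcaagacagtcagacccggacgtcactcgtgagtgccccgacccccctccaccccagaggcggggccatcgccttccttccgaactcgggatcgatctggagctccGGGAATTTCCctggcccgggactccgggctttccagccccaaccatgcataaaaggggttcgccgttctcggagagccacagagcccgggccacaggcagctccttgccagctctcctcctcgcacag
CXCL3: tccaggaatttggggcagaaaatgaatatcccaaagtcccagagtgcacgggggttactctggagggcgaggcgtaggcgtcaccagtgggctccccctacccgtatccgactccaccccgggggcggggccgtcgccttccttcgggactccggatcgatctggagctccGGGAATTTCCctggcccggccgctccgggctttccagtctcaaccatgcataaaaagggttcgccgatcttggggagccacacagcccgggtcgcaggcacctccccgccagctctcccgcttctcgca

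Of 19 tested genes of MHC class I antigen presentation 7 fell, against 8.29% of all genes, and 18 of the 19 had a negative log2 change, with a median of -0.79 against -0.05 over all genes. After the GC and length correction 8 fell, against 4.03% of all genes, and the median was again -0.79, and without siI3 replicate 3 there were 8 lower with a median of -0.59. PSME1 and PSME2, which form the proteasome activator PA28, were at 91.4, 58.3 and 73.8 FPM and at 63.1, 55.1 and 62.1 FPM in siC. In siI3 PSME1 was at 29.9, 22 and 33.1 FPM and PSME2 at 34.2, 29.4 and 31.9 FPM. No siI3 library reached the lowest siC value of either gene (limma adjusted p = 0.00964 and 0.0138). The peptide-trimming aminopeptidase ERAP1 fell from 46.4 to 53.1 FPM in siC to 25.1 to 26.4 FPM in siI3 (log2 change -0.92, SE 0.18, limma adjusted p = 0.0096) but did not pass after the correction (-0.42, limma adjusted p = 0.105). The chaperone CANX fell from 451 to 611 FPM to 177 to 290 FPM (log2 change -1.18, SE 0.25). The light chain B2M, named after its values were seen, was at 414, 238 and 412 FPM in siC and 50.1, 59.5 and 241 FPM in siI3, where replicate 3 lay within the siC range, and it did not pass after the correction (limma adjusted p = 0.0509). HLA-E was the member with a positive change (0.26, limma adjusted p = 0.343). In limma, edgeR and DESeq2 alike 0 members were higher, also at an unadjusted limma p of 0.05, where 12 were lower. No member of the list kept its call in all 6 limma fits that leave out 1 library, ERAP1 keeping it in 4. Against siI1 9 of the 19 were lower in siI3 and against siI2 0, with medians of -0.87 and -0.43. Over all genes the shares lower were 4.57% and 1.26%. The siI2 means lay between those of siI3 and siC for PSME1 (39.4 FPM), PSME2 (40.6 FPM), ERAP1 (30.5 FPM) and CANX (333 FPM). None of them passed between siI2 and siC. HLA genes resemble one another in sequence, so their separate values are uncertain.

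Of 29 tested interferon-stimulated genes 4 fell (13.8%, against 8.29% of all genes) and 26 had a negative log2 change, with a median of -0.64. After the GC and length correction 5 were lower, against 4.03% of all genes, and the median was -0.47. IFI6, a membrane protein induced by type I interferon, was at 9.86, 9.92 and 11.1 FPM in siC and 1.54, 1.14 and 1.06 FPM in siI3 (log2 change -2.33, SE 0.34, limma adjusted p = 0.00177). UBE2L6, the conjugating enzyme for ISG15, was at 36.8, 70.2 and 61.7 FPM in siC and 24.8, 21 and 16.1 FPM in siI3. Both kept their call in all 6 fits and after the correction. PARP14, a mono-ADP-ribosyltransferase, fell from 23.4 to 37.7 FPM to 9.53 to 14 FPM, and STAT2, a subunit of the interferon-activated factor ISGF3, from 34.5 to 43.5 FPM to 19.1 to 19.6 FPM. ISG15 (4.74 to 6.58 FPM in siC, 2.3 to 7.37 FPM in siI3) did not pass, and its siC and siI3 values overlapped. Of the 29 genes 11 were lower in siI3 than in siI1 and 3 lower than in siI2, against 4.57% and 1.26% of all genes.

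**Figure D4:**
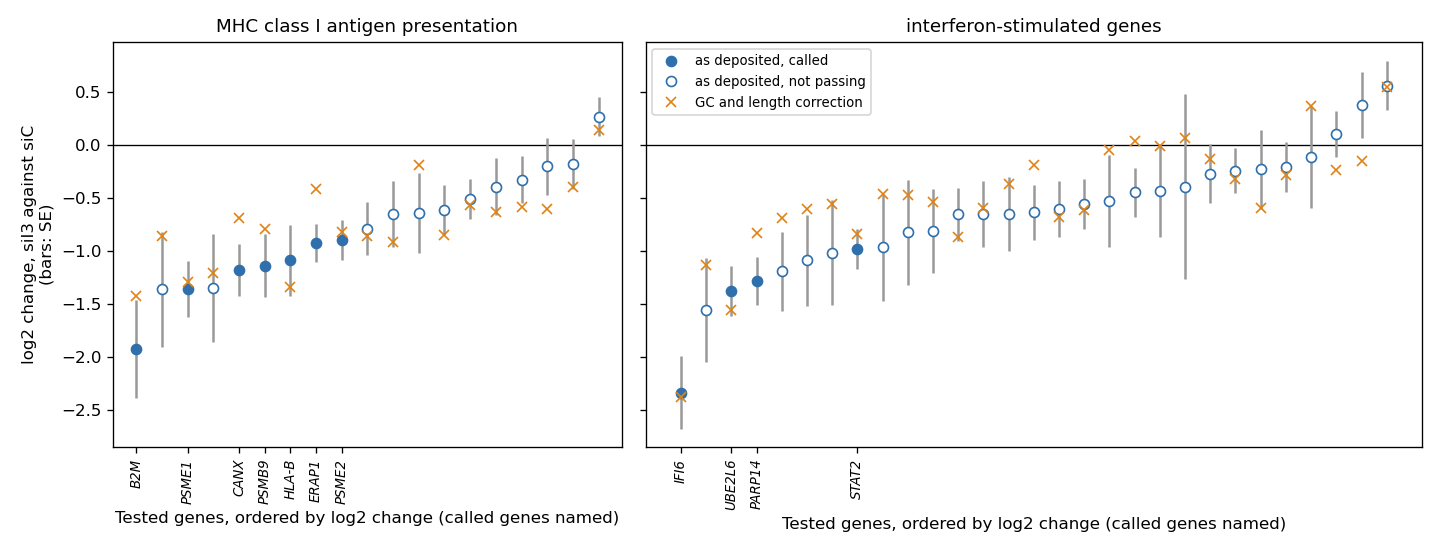
Log2 change between siI3 and siC of the 19 tested genes of MHC class I antigen presentation and 29 interferon-stimulated genes, as deposited (circles, filled where called, bars SE) and after the GC and length correction (crosses). 18 of the 19 and 26 of the 29 circles lie below 0, and 7 and 4 are filled and carry their symbols.

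The promoters of IFI6 and PSME2 are shown for an element they have in common with many interferon-induced genes. Capitals mark matches to GAAANNGAAA in IFI6 (chr1:27672143-27672442, minus strand) and PSME2 (chr14:24146561-24146860, minus strand), in the same window as above. IFI6 holds 3 such matches, the outermost starting 156 and 93 bases before the start of transcription, and PSME2 holds 1, starting 28 bases before it. On either strand the element was in 3.57% of the 35116 promoters. It was in the promoters of IFI6 and PARP14 among the 4 interferon-stimulated genes that fell and in 12 of 19 with a sequence that did not pass, ISG15 and OAS3 among them. Of the 7 antigen-presentation genes that fell, B2M, ERAP1, PSME1 and PSME2 held it, as did 6 of the 8 members with a sequence that did not pass.
IFI6: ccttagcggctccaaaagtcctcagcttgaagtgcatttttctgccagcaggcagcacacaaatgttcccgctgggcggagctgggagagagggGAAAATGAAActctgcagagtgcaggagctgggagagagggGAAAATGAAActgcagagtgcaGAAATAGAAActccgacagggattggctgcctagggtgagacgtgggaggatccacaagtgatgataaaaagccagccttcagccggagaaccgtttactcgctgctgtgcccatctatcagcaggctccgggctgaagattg
PSME2: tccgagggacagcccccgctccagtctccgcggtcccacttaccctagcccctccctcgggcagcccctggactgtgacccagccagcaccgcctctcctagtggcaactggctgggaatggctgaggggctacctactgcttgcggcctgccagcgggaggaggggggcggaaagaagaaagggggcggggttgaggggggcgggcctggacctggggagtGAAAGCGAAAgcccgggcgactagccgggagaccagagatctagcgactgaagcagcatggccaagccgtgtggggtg

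Of 24 tested adhesion molecules and ligands seen by immune cells 5 fell (20.8%, against 8.29% of all genes). VCAM1, the endothelial and mesothelial adhesion molecule bound by integrin α4β1, was at 10.3, 6.69 and 10 FPM in siC and 0.561, 0.635 and 0.532 FPM in siI3 (log2 change -2.65, SE 0.43, limma adjusted p = 0.00347). These siI3 levels correspond to a few reads in each library. MICB, a ligand of the activating receptor NKG2D on natural killer cells, was at 21, 29.4 and 20.6 FPM in siC and 6.88, 8.13 and 9.39 FPM in siI3 (log2 change -1.42, SE 0.21, limma adjusted p = 0.00177). RAET1E, another NKG2D ligand, was at 2.9 to 3.99 FPM in siC and 0.127 to 0.982 FPM in siI3. The neural adhesion molecule NCAM1 fell from 21.8 to 29.8 FPM to 10.2 to 12.8 FPM. VCAM1, MICB and NCAM1 kept their call in all 6 fits and after the correction, and RAET1E in 3 of the 6. The NKG2D ligand ULBP2 (4.33 to 6.26 FPM in siC, 3.19 to 5.05 FPM in siI3) and the checkpoint ligand CD274 (4.85 to 9.34 FPM in siC, 2.67 to 5.47 FPM in siI3) did not pass.

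Genes of pericellular proteolysis and matrix went in both directions. Of 20 tested plasminogen activators, receptors and serpins 7 passed (35%, against 10.6% of all genes), 6 of them lower. The median log2 change of the list was 0.01. After the GC and length correction 3 were higher and 5 lower, against 2.56% and 4.03% of all genes, and the median was 0.33. The urokinase gene PLAU was at 406, 402 and 300 FPM in siC and 130, 112 and 88.6 FPM in siI3 (log2 change -1.74, SE 0.20, limma adjusted p = 0.000275). The tissue plasminogen activator PLAT was at 885, 1161 and 972 FPM in siC and 386, 309 and 264 FPM in siI3 (log2 change -1.66, SE 0.21, limma adjusted p = 0.000478). Both activators were lower in every siI3 library than in any siC library, in all 6 fits and after the correction. PLAT was also called lower than siC in siI1 (mean 537 FPM, limma adjusted p = 0.0167). Between siI3 and siI1 it passed, lower in siI3 (limma adjusted p = 0.0346). The urokinase receptor PLAUR did not pass (108 to 154 FPM in siC, 138 to 204 FPM in siI3). The coagulation inhibitor TFPI and the serpin SERPINE2 fell, each with 2 of 6 fits, and SERPINE2 did not pass after the correction (limma adjusted p = 0.245).

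Among 12 tested matrix metalloproteinases and their inhibitors, the gelatinase MMP2 and the inhibitor TIMP3 fell (16.7%, against 8.29% of all genes). MMP2 was at 64.1, 76 and 63.2 FPM in siC and 13.1, 15.1 and 18.1 FPM in siI3, and TIMP3 at 175, 205 and 215 FPM and at 97.2, 94.9 and 76.4 FPM. Both kept their call in all 6 fits, with TIMP3 at a log2 change of -1.14 (SE 0.17, limma adjusted p = 0.00218). Of 22 matrix glycoproteins 4 rose and 4 fell, against 2.3% and 8.29% of all genes. After the GC and length correction 2 were higher and 3 lower, against 2.56% and 4.03%. TNC, the adhesion-modulating tenascin, rose from 174, 210 and 166 FPM to 538, 455 and 372 FPM (log2 change 1.30, SE 0.18, limma adjusted p = 0.00125). TGFBI, a TGF-beta-induced integrin ligand, fell from 127, 129 and 97.7 FPM to 28.1, 21.9 and 28.9 FPM (log2 change -2.12, SE 0.20, limma adjusted p = 4.91e-05). THBS1 fell from 145, 141 and 141 FPM to 58.2, 56.1 and 47.7 FPM, and FN1, the fibronectin gene, from 139, 129 and 133 FPM to 61.9, 44.7 and 71.1 FPM. FN1 was also called lower than siC in siI1 (mean 51.8 FPM, limma adjusted p = 0.000435). Between siI3 and siI1 it did not pass (limma adjusted p = 0.671). TNC, TGFBI, THBS1 and FN1 kept their calls in all 6 fits and after the correction. The basement membrane genes NID1, AGRN and HSPG2 also rose, each in 2 of 6 fits, and AGRN and HSPG2 did not pass after the correction (limma adjusted p = 0.503 and 0.434). NID1 was also called higher than siC in siI1 (limma adjusted p = 0.0274). FBN1, the fibrillin gene, fell with all libraries but not after the correction (limma adjusted p = 0.0618). The aggrecanase ADAMTS1 rose from 49.4 to 60.1 FPM to 95 to 121 FPM in all 6 fits. The integrin subunit gene ITGB5 fell from 95.4 to 120 FPM to 37.2 to 52.2 FPM in all 6 fits. Of 17 collagen chains 1 rose (5.88%, against 2.3% of all genes), COL18A1, which did not pass after the correction (limma adjusted p = 0.159). COL18A1 was also called higher than siC in siI1 and siI2 (limma adjusted p = 0.0489 and 0.0483).

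Of 27 tested YAP and TEAD targets 3 fell (11.1%, against 8.29% of all genes). After the GC and length correction 2 were lower, ANKRD1 and MYOF, and 2 higher, DLC1 and F3, against 4.03% and 2.56% of all genes. DLC1 and F3 were named after their values were seen. DESeq2 gave 3 higher and 3 lower. The smallest p was that of the cardiac ankyrin-repeat gene ANKRD1, which was at 745, 462 and 660 FPM in siC and 112, 115 and 150 FPM in siI3 (log2 change -2.28, SE 0.27, limma adjusted p = 0.000275), a call kept in all 6 fits. ANKRD1 was also called lower than siC in siI1 and siI2 (means 317 and 242 FPM, limma adjusted p = 0.0328 and 0.0179). Between siI3 and siI2 it did not pass (limma adjusted p = 0.101). Of 30 TGF-beta genes 5 fell and 3 rose, against 8.29% and 2.3% of all genes, with ID3 and ID2 among the higher and TGFBI, TGFB2, BMP4, TGIF1 and TGFBR1 lower. TGFB2, TGIF1, TGFBR1 and ID2 did not pass after the correction (limma adjusted p = 0.329, 0.614, 0.198 and 0.0664), and edgeR called 3 lower. The neuropilin NRP1, a co-receptor of VEGF and semaphorins, fell from 128 to 148 FPM to 58.5 to 78.4 FPM in all 6 fits. CDH5, the endothelial cadherin, rose from 54.8 to 71.8 FPM to 93.7 to 109 FPM (limma adjusted p = 0.0196), in 2 of 6 fits. It was also called higher than siC in siI1 and siI2 (means 140 and 114 FPM, limma adjusted p = 0.000638 and 0.0154). Of 23 p53 targets 0 passed in limma and edgeR without the correction. In DESeq2 1 rose and 1 fell, and 1 was higher and 2 lower at an unadjusted limma p of 0.05. After the GC and length correction 0 were higher and 1 lower, against 2.56% and 4.03% of all genes. RPS27L, called lower and described below as p53-inducible, was not on this list.

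Many of the largest decreases lost their call when 1 library was left out. RPS24, a ribosomal protein of the small subunit, was at 459, 145 and 342 FPM in siC and 14, 20.6 and 39.9 FPM in siI3 (log2 change -3.59, SE 0.82, limma adjusted p = 0.0189). In siI1 RPS24 was at 24.2, 211 and 38.8 FPM and in siI2 at 32.15, 289 and 19.6 FPM. COX7B, a subunit of cytochrome c oxidase, was at 155, 110 and 128 FPM in siC and 8.98, 9.65 and 72.8 FPM in siI3. RPL35A, of the large ribosomal subunit, was at 499, 422 and 411 FPM in siC and 42.5, 27.1 and 288 FPM in siI3. In COX7B and RPL35A siI3 replicate 3 lay much closer to siC than replicates 1 and 2 did. COX7B, DARS (aspartyl-tRNA synthetase), RPL35A and the mediator subunit MED21 did not pass after the GC and length correction (limma adjusted p = 0.0645, 0.0645, 0.0551 and 0.0642). RPS24, ANXA1, SPANXC, SNHG20 and RPL36AL passed after it and kept their call in 2 of the 6 fits. Neither these nor COX7B, DARS, RPL35A and MED21 passed between siI3 and siI1 or between siI3 and siI2. RPS27L, a p53-inducible ribosomal-like protein, was at 42.4, 18.2 and 51.3 FPM in siC and 5.89, 3.3 and 6.56 FPM in siI3 (log2 change -2.54, SE 0.38, limma adjusted p = 0.00177), and passed in all 6 fits. The noncoding RNA AC124067.2 was at 12.1, 18.3 and 14.9 FPM in siC and 1.4, 0.762 and 1.95 FPM in siI3, and passed in all 6 fits. RPS27L and AC124067.2 were also called lower in siI3 than in siI1 and siI2. The antisense RNAs AC099850.3 and AC002454.1 and the long noncoding RNA LINC01425 were also among the 15 largest decreases. None of them passed between siI3 and siI1 or siI2. LINC01425 and AC002454.1 were also called lower than siC in siI1 (limma adjusted p = 0.0192 and 0.0238). The sources used here do not say whether the counting used strand, so reads of these antisense RNAs and of the genes opposite them cannot be told apart. Ribosomal protein genes have many processed copies, and SPANXC has near-identical paralogs, which makes their separate counts uncertain.

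The siI3 libraries were also compared with the other knockdowns, with differences that use no siC level, although the siC libraries enter the estimate of the spread. Between siI3 and siI1 971 genes passed in limma (7.05%), 341 higher (2.47%) and 630 lower (4.57%) in siI3. Between siI3 and siI2 276 passed (2.0%), 102 higher (0.74%) and 174 lower (1.26%), and 91 passed with only the 6 libraries compared. The Spearman correlation across 13575 genes between log2 change and GC content, a description of genes that are not independent, was 0.55 for siI3 against siC, -0.03 against siI1 and 0.05 against siI2. Called in the same direction against siC, siI1 and siI2 were 111 genes (0.805%), 24 higher (0.174%) and 87 lower (0.631%) in siI3. These 3 comparisons share the siI3 libraries, and the count is therefore not 3 separate observations.

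Several of the genes described above belonged to these 111. FOS, FOSB, EGR1, ARC, VGF, VAMP4 and ESM1 were higher in siI3 than in each of the other groups. FOS had a mean of 1.66 FPM in siI1 and 0.71 FPM in siI2, and the siI3 difference was 1.86 and 2.47 on the log2 scale (limma adjusted p = 0.00125 and 0.000329). EGR1 had a mean of 0.97 FPM in siI1 and 0.913 FPM in siI2, with differences of 2.00 and 2.03 (limma adjusted p = 0.000254 and 0.00067). VGF had a mean of 2.88 FPM in siI1 and 2.87 FPM in siI2, with differences of 2.71 and 2.72 (limma adjusted p = 9.56e-05 and 0.000329). ESM1 had a mean of 0.328 FPM in siI1 and 16.9 FPM in siI2. SH2D5, AL596244.1 and SHISA3 completed the 10 higher genes with the largest smallest difference. AL596244.1 did not pass against siC after the GC and length correction (limma adjusted p = 0.0539), and all 3 kept their call against siC in 2 of the 6 fits. On the lower side, IFI6, the replication-associated gene PCLAF, the protease gene CPM, the hedgehog-binding HHIP and ZNF608 were lower in siI3 than in each other group. CPM did not pass against siC after the correction (limma adjusted p = 0.0749) and kept its call in 2 of the 6 fits. TGFBI had a mean of 180 FPM in siI1 and 117 FPM in siI2 (differences -2.74 and -2.09, limma adjusted p = 2.76e-07 and 2.96e-05).

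For some genes the IGF2BP3 and IGF2BP1 knockdowns stood on opposite sides of the control. Lower in siI3 and higher in siI1 than in siC, with the direct comparison also passing, were 33 genes, and higher in siI3 and lower in siI1 were 5. MMP2 had a mean of 285 FPM in siI1 and 142 FPM in siI2, above every siC library, and the differences of siI3 from them were -4.13 and -3.13 on the log2 scale (limma adjusted p = 8.1e-10 and 6.44e-08). GYPC, a membrane sialoglycoprotein, was at 29.8, 58.5 and 40.1 FPM in siC, 10.8, 10.2 and 8.68 FPM in siI3 and a mean of 128 FPM in siI1. PLK2, a polo-like kinase, was at 135, 119 and 120 FPM in siC, 33.5, 36.3 and 27.3 FPM in siI3 and a mean of 197 FPM in siI1. THBS1 had a mean of 337 FPM in siI1, and the difference of siI3 from it was -2.62 (limma adjusted p = 5.59e-08). ITGB5 had a mean of 285 FPM in siI1 and the difference of siI3 from it was -2.66 (limma adjusted p = 2.31e-07). Against siI2, 6 genes were lower in siI3 and higher in siI2, MMP2, THBS1, TIMP3, GSN, CA11 and PTGS1, the last 3 named after their values were seen.

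Of 39 tested genes of G2 and mitosis 10 were lower in siI3 than in siC, against 8.29% of all genes, with a median of -0.71. With the correction 3 were lower, against 4.03% of all genes, with a median of -0.33. KIF20A, a mitotic kinesin, was at 141, 158 and 147 FPM in siC and 55.4, 51.3 and 84.5 FPM in siI3, and PTTG1, the securin gene, at 183, 189 and 196 FPM and at 53.7, 34.8 and 148 FPM. Compared with siI1, 1 of the 39 was lower, against 4.57% of all genes. The medians were -0.03 against siI1 and -0.03 against siI2. Of 57 respiratory chain subunits 12 were lower (21.1%, against 8.29% of all genes). After the correction 6 were lower, against 4.03% of all genes, and the median was -0.03. Of 42 translation initiation factors 9 were lower, against 8.29% of all genes. After the correction 3 were lower and 1 higher, against 4.03% and 2.56% of all genes. Of 18 writers, erasers and readers of N6-methyladenosine 4 were lower, against 8.29% of all genes. After the correction 2 were lower, YTHDC1 and HNRNPC, against 4.03% of all genes. HNRNPC was also called lower than siC in siI1 (limma adjusted p = 0.04). YTHDC1, a nuclear reader, was at 36.5, 25 and 32.1 FPM in siC and 9.26, 10.2 and 14.7 FPM in siI3. No member of the mitotic, respiratory, initiation or methyladenosine lists kept its call in all 6 fits that leave out 1 library. In the list of unfolded protein and integrated stress response genes 5 of 38 fell against siC (13.2%, against 8.29% of all genes). Compared with siI1, 5 were higher and 4 lower, against 2.47% and 4.57% of all genes. The endoplasmic reticulum stress sensor ATF6 fell from 39.4 to 70.7 FPM to 15.1 to 22.3 FPM in all 6 fits. ATF6 was also called lower than siC in siI1 (mean 30.8 FPM, limma adjusted p = 0.0385). It did not pass between siI3 and siI1 (limma adjusted p = 0.0655). Of 39 genes of G1/S and DNA replication 2 fell (5.13%, against 8.29% of all genes). Of 31 genes of cholesterol and fatty acid synthesis 2 rose (6.45%, against 2.3% of all genes).

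**Figure D5:**
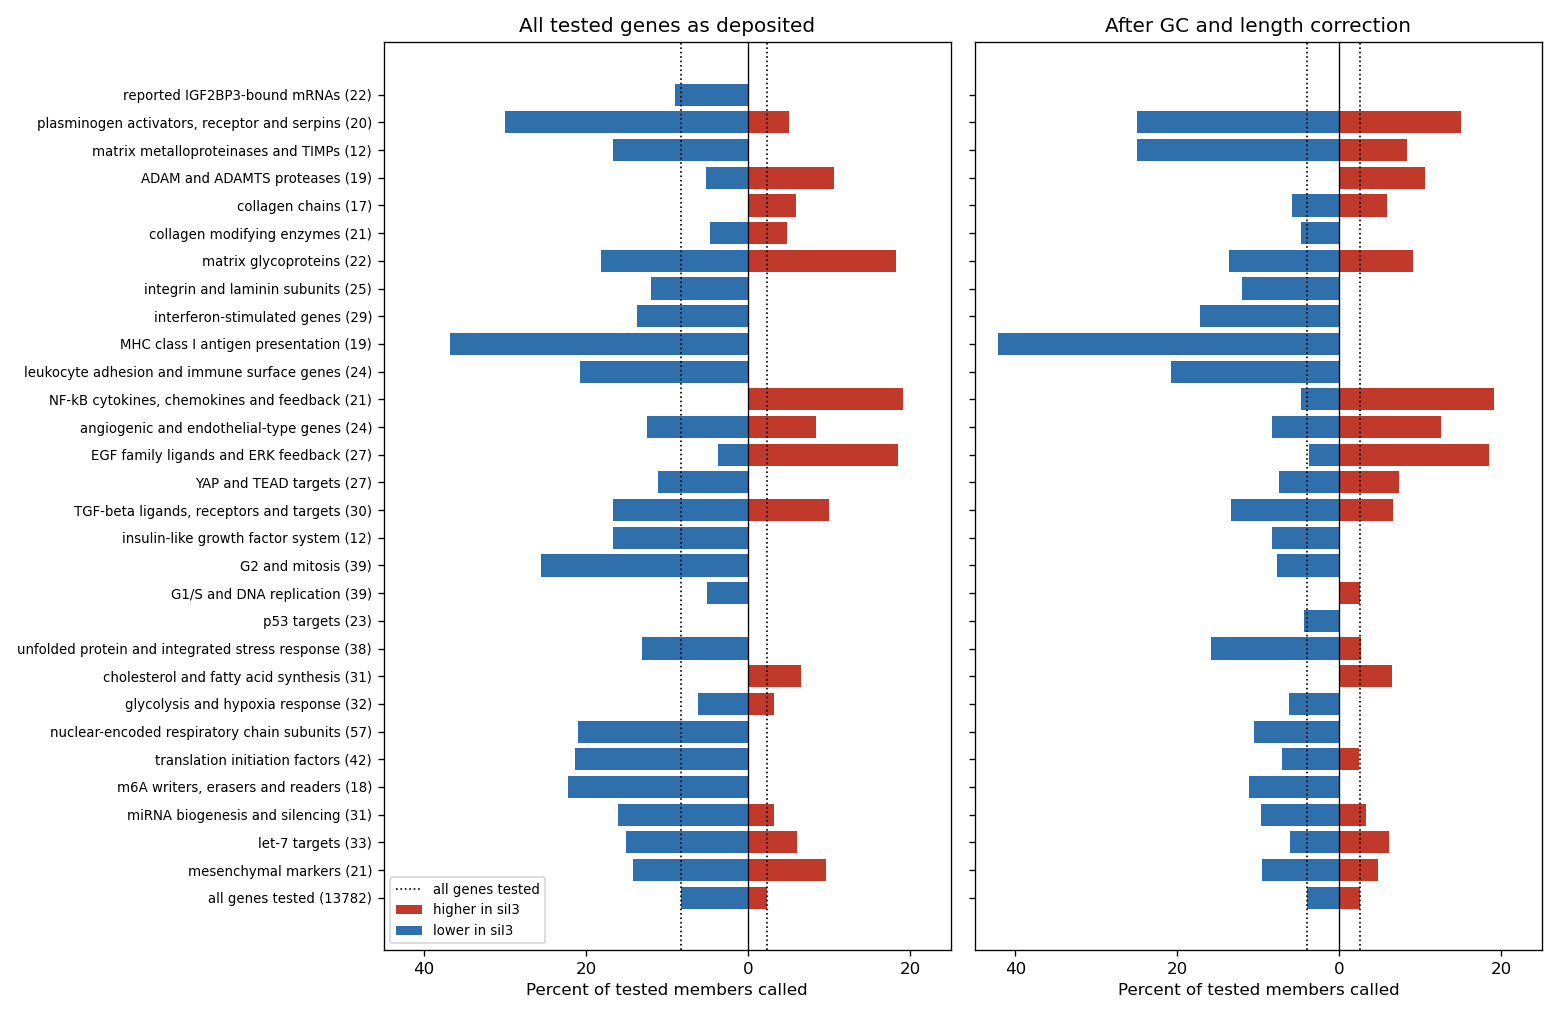
Percent of the tested members of each gene list (number in parentheses) called higher (red) or lower (blue) in siI3 than in siC, as deposited and after the GC and length correction, with dotted lines for all genes tested. The lower calls of the G2 and mitosis list go from 10 to 3 of 39 between the panels, while those of MHC class I antigen presentation go from 7 to 8 of 19.

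mRNAs described in the literature as bound by IGF2BP3 were called about as often as all genes (9.09% against 10.6%). Of 22 tested, 0 rose and 2 fell, against 2.3% and 8.29% of all genes, with a median log2 change of 0.07. Those that fell were the adhesion receptor CD44, at 245, 230 and 316 FPM in siC and 91.2, 92.2 and 185 FPM in siI3, and the GTPase gene NRAS, at 36.8, 22.3 and 44.4 FPM and at 14, 11.9 and 15.8 FPM. Neither passed after the GC and length correction (limma adjusted p = 0.0596 and 0.153). HMGA2, a chromatin protein of embryonic cells, was at 28.2, 23.6 and 35.7 FPM in siC and 23, 22.2 and 14.2 FPM in siI3, and MYC at 251, 372 and 257 FPM and at 403, 439 and 268 FPM. The groups overlapped for MYC and not for HMGA2, and neither passed (limma adjusted p = 0.319 and 0.249). CCND1 (748 to 838 FPM in siC, 535 to 1066 FPM in siI3) and CDK6 (69.3 to 94.4 FPM in siC, 79 to 87.8 FPM in siI3) did not pass. LIN28B, an inhibitor of let-7 maturation, was below the filter, at 0.324 to 1.04 FPM in siC and 0.254 to 0.532 FPM in siI3.

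IGF2BP proteins have been linked to the let-7 microRNAs, whose mature sequence is shown with its seed (bases 2 to 8) in capitals. The sequence is RefSeq's.
let-7a-5p: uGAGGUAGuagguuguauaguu
The complementary site CTACCTC was searched for in the annotated 3′ UTR of the longest coding transcript, which 11226 of the tested genes had. It was in 11.9% of 966 genes called lower, in 6.5% of 246 called higher and in 10.9% of the 11226. The 1229 genes with a site had a median log2 change of -0.16 and those without one -0.05. After the GC and length correction the medians were -0.01 and 0.0022. Genes with a site had longer 3′ UTRs (median 3169 against 1211 bases) and lower transcript GC content (46.3% against 48.7%), and the part of either in these medians was not tested. Of 33 tested let-7 targets from the literature 5 fell and 2 rose, against 8.29% and 2.3% of all genes, with a median log2 change of 0.01. THBS1 and IGF2BP3, the siRNA target itself, were among those that fell. After the GC and length correction 2 of the 33 were lower and 2 higher, against 4.03% and 2.56% of all genes. The median was then 0.02.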

How the data were processed

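Total RNA of ES-2 cells was depleted of ribosomal RNA, reverse-transcribed with random hexamers and sequenced as paired reads, per the labels' protocols. The submitters' processing notes name cutadapt 1.6, TopHat2 2.0.13, featureCounts 1.4.6, edgeR 3.12 and the build hg19. The authors deposited a table of 57865 features with FPM signal values, already scaled between libraries, for all 12 libraries, and, per the file headers, a log2 fold change and an FDR (an adjusted p-value) for this comparison, used here only where the authors' table is named. The FPM values were whole multiples of 1 read in 100% of cases (tolerance 0.01), which gave the reads back. The 92 spike-in rows were left out. The 37 mitochondrial features were at 0 in every library. Of the features, 52338 took their symbol from the annotation through the identifier and 1945 through the symbol. The others kept the name in the table.

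Genes with enough reads (filterByExpr of edgeR 4.0.16, minimum count 10) numbered 13782. limma 3.58.1 (R 4.3.3) with a mean-variance trend was fitted to log2(FPM + 1) of all 12 libraries, with 1 coefficient per group, Benjamini-Hochberg adjustment over all genes and a threshold of 0.05. Fold changes on this scale understate the change of low genes. The counts recovered from the deposited values were also tested with edgeR and DESeq2 1.42.0. The GC and length correction subtracted a loess surface (span 0.5) from each library, with transcript GC content known for 98.5% of genes. The limma fit was tested on simulated counts with known changes, without a GC slope or a wider spread of reads in any library. The correction, the thinning and the promoter search were not tested in this way. Leaving out a library pools the spread over all remaining libraries.

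The comparison, the members and the gene lists were chosen with earlier results of these data known. Named genes are the IGF2BPs, HMGA2, LIN28B and MYC, the 15 largest increases and decreases among called coding or long noncoding genes that reach 5 FPM on average in the higher group and whose siI3 and siC libraries do not overlap, in each list and direction the called members with the 4 smallest p, and up to 10 genes per direction called alike against siC, siI1 and siI2. Members of a list that did not pass were chosen for naming after their values were seen, as was the choice of promoters. Promoters were matched by symbol to RefSeq sequences of 300 bases on GRCh38.p14. Some genes of the lists are not reported here.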

Additional observations from a re-analysis of the deposited data

Results flagged for a closer look

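Reads outside the genes tested stood out in siI3 replicate 3. After thinning to equal depth, 119 of 439 genes in families silent outside sense organs and germ line had a read there, against 25 to 45 in the siC libraries, and 29167 features had a read, against 20873 to 22733 in siC. The count of 29167 runs over all features, the genes tested included. Features outside the genes tested took 1.4% of the reads of siI3 replicate 3, spike-ins aside, against 0.373% to 0.567% in siC. Only the reads of these untested features were not used in the comparisons above. Their part in the calls was not tested, and the calls are given with and without that library.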

How the results depend on the processing

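The 1460 calls between siI3 and siC became 895 after the GC and length correction, 461 with no filter on low values, 745 with the replicate block, 547 with the replicate block and the correction, and 2296 in DESeq2. Leaving out 1 library gave 89 to 2824 calls, lowest without siC replicate 1 and highest without siC replicate 2. With the correction as well, leaving out 1 library gave 186 to 2118: 186 without siC replicate 1, 190 without siC replicate 3, 277 without siI3 replicate 1 and 187 without siI3 replicate 2. Leaving out siC replicate 2 and siI3 replicate 3 together, chosen after seeing the data like the protein-coding fit and the corrected fits without siC replicate 2 or siI3 replicates 1 and 2, gave 4667. The share of calls that were higher in siI3, 21.7% in the reported fit, was 38.9% after the correction, 33.7% in edgeR and 37.7% in DESeq2. Between siI3 and siI1, 971 calls became 1563 with the correction, 594 with no filter, 546 to 1223 without 1 library, and 990 to 2000 with both. Between siI3 and siI2, 276 calls became 513 with the correction, 148 with upper-quartile factors, 134 with no filter, 91 with only the 6 libraries compared, 557 in DESeq2, 112 to 410 without 1 library, and 418 and 419 with the correction and without siC replicate 1 or 3. With the correction and without 1 siI3 library they were 283 to 979. The cause of these shifts was not tested. Other settings stayed within 1.5 times the reported counts. Same-numbered siC and siI3 libraries deviated together at r = 0.013, 0.19 and 0.27 on the values of the reported fit, not all over 0.1, and at 0.11, 0.11 and 0.20 after the correction, and the labels do not say whether a number marks a shared culture or day. The pairing is therefore not established. With the replicate block 34 of 137 named genes no longer passed, at adjusted p of 0.0513 to 0.0806, among them COX7B, DARS, RPL35A, MED21, CD44, NRAS, NID1, AGRN, HSPG2, FBN1, CXCL2, ID2, BMP4, TGIF1, TGFBR1 and PTTG1, and with the block and the correction 55. Of 137 named genes 100 kept their side of the threshold under the correction, 132 without siI3 replicate 3 and 41 without siC replicate 1. Signs turned for IGF2BP1 (0.0104) and TGIF1 (0.0158) with the correction and without siC replicate 2, and for HMGA2 (0.168) with the correction and without siI3 replicate 3, none of them passing. Depth limited genes near 1 FPM, where 3 reads correspond to 0.324 to 0.532 FPM in these 6 libraries.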

Other observations

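Genes of the cytosolic ribosome, a family looked at after the data were seen, numbered 79 among the genes tested. Of these 19 were lower in siI3 than in siC, against 8.29% of all genes, and the median log2 change of the 79 was -0.22. After the GC and length correction 9 were lower and 2 higher, against 4.03% and 2.56% of all genes, with a median of -0.01. In all 6 fits that leave out 1 library 1 member kept a lower call. Called genes also differed in base composition. Genes called higher had a median transcript GC content of 58.1% and genes called lower 43.8%, against 49% over all genes, and after the correction the medians were 47.8% and 48%.

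In a group of genes siI3 replicate 3 did not share the level of replicates 1 and 2. These genes were picked by replicates 1 and 2, which by itself favours smaller changes in replicate 3. The same was not done with another siI3 library held out. Of 594 tested genes with at least 5 FPM in siC whose level in siI3 replicates 1 and 2 was under 50% of the lowest siC value, 142 were under that limit in replicate 3 too, 522 were below the siC range there and 71 lay within it. The U1 small nuclear RNA copies, B2M and CXCL8 were among these 71. Of 75 genes with at least 5 FPM in siI3 and above 200% of the highest siC value in replicates 1 and 2, 22 were above it in replicate 3 and 7 lay within the siC range. CALU, the gene of a calcium-binding protein of the secretory pathway, was at 151, 139 and 201 FPM in siC and 44.1, 47.1 and 145 FPM in siI3, one of those within the range. Spike-in RNAs took 1.71% to 2.67% of the reads in siC and 0.902%, 0.742% and 1.37% in siI3 replicates 1, 2 and 3.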
